A study of Rattus norvegicus with 6 samples.

Results

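The miRNAs of the imprinted Dlk1-Dio3 locus were compared between the hearts of control rats and of rats with chronic colitis. Members were taken by name, as every array miRNA that carries 1 of 42 miRNA numbers known from the locus, with any letter or arm. The rule uses no measured value, but the members were chosen with earlier results of these data known. The rule gave 86 members, from 46 hairpin names, of the 761 rat miRNAs on the array. Of the 86 members, 60 were detected on no array and 20 were detected on at least 3 of the 6 arrays and tested. Of these 20, miR-485-3p, miR-758-5p, miR-496-5p, miR-539-5p and miR-493-3p were higher in DSS hearts at an adjusted p under 0.05, and none was lower. These 5 are 25% of the members tested, and over all tested miRNAs 20.9% were higher and 28.4% lower.

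All 6 hearts came from adult Sprague Dawley rats, which the study's methods describe as male littermates bought at 6 weeks of age. The 3 rats of the DSS group (animals 13, 14 and 16) drank 3% dextran sodium sulfate, an irritant of the colon, for 5 days and normal water for 9 days, in 4 cycles over 8 weeks. The 3 control rats (animals 9, 10 and 11) are labelled control, and no agent is named for them. Total RNA of each heart was tailed, tagged and hybridised in 1 colour to an array on which each miRNA has 4 spots, 1 array per animal. The tissue is heart, which the study calls cardiac tissue without naming the part used for the arrays. For every result here, a change in the number of cells of a type and a change in RNA per cell cannot be told apart.

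The Dlk1-Dio3 locus is an imprinted domain, in which each gene is read mainly from the chromosome of 1 parent. The protein genes Dlk1, Rtl1 and Dio3 are read from the paternal chromosome, and Meg3, arrays of small nucleolar RNAs and the miRNAs are read from the maternal one. The miRNAs are thought to be cut from long transcripts that carry many hairpins, and they are best known from embryo, placenta and brain, and from muscle before and shortly after birth. From each hairpin a 5p and a 3p arm can be loaded into a silencing complex, where bases 2 to 8 of the arm, the seed, pair with messenger RNAs.

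In the RefSeq table for the build GRCr8, 84 of the 86 members had a mature entry, and for all 84 the array's target was identical to that entry. They lay at chr6:134298094-134579828, with 81 on the plus strand and 3 on the minus strand. They formed 2 groups separated by 188.9 kb. The segment from miR-770 to miR-370 spans 56.466 kb, and the segment from miR-379 to miR-410 spans 36.369 kb. The remaining 2 members, miR-127-5p and miR-136-5p, had no entry.

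The mature sequences of the 5 members that were higher in DSS hearts are shown first, each followed by the other arm of its hairpin, since the arms are compared later. They are written 5′ to 3′ with the seed in capitals, from RefSeq (GRCr8).
rno-miR-485-3p: cAUACACGgcucuccucucuuc
rno-miR-485-5p: aGAGGCUGgccgugaugaauuc
rno-miR-758-5p: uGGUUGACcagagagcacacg
rno-miR-758-3p: uUUGUGACcugguccacuaacc
rno-miR-496-5p: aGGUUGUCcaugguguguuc
rno-miR-496-3p: aGUAUUACauggccaaucucc
rno-miR-539-5p: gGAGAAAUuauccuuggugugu
rno-miR-539-3p: cAUACAAGgguaauuucuuuuc
rno-miR-493-3p: uGAAGGUCuacugugugccag
rno-miR-493-5p: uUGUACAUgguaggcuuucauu
The miR-485-3p sequence lies at chr6:134571115-134571136, miR-758-5p at chr6:134547254-134547274, miR-496-5p at chr6:134575062-134575081 and miR-539-5p at chr6:134563606-134563627. These 4 lie in the segment from miR-379 to miR-410, and miR-493-3p, at chr6:134314784-134314804, lies in the other. All 5 are on the plus strand.

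The 5 called members carried 5 different seeds. Among the 86 members there were 80 different seeds, of which 5 were shared by more than 1 member. The seed GGUUGUC of miR-496-5p was also that of miR-494-5p and miR-410-5p, and of these miR-494-5p was tested and not called, with a change of -0.21 on the log2 scale, and miR-410-5p was not tested. A further pair is shown because the arms differ by 3 single-base changes and are read from opposite strands, and whether their probes separate them was not tested.
rno-miR-299a-5p: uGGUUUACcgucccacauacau
rno-miR-299b-5p: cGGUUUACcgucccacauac
Both were tested, and their changes of 0.06 and -0.04 did not pass the test. Each of the 5 called members differed by at least 5 single-base changes from every other miRNA on the array.

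Detection of the locus was sparse. Detection on an array required 2 or more of a miRNA's 4 spots to exceed the background by over 3 SD of that array's empty spots, with an even signal within the spot. On the 3 control arrays 13, 11 and 14 members were detected, and on the DSS arrays 24, 19 and 17. Every DSS array was above every control array (12.7 ± 1.53 against 20 ± 3.61, SD, n = 3). Over the whole array the groups overlapped, with 283, 223 and 255 miRNAs detected in controls and 365, 256 and 239 in DSS hearts. The limit was not equally strict on every array: between 1.27% and 32.1% of empty spots lay above it, the highest share on the array of DSS animal 14. With a limit counted from the median empty spot, 8, 6 and 10 members were detected in controls and 23, 13 and 13 in DSS hearts, and 13 members were detected on at least 3 arrays.

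By number of arrays, 60 members were detected on none, 4 on 1, 2 on 2, 7 on 3, 3 on 4, 3 on 5 and 7 on all 6. The members tested were 23.3% of the 86, and 38.8% of the other miRNAs on the array were tested. In the segment from miR-770 to miR-370, 2 of 23 members were tested (miR-493-3p and miR-665) and 18 were detected nowhere. In the segment from miR-379 to miR-410, 18 of 63 members were tested, from 15 of 33 hairpins, and 42 were detected nowhere. The best known members of the first segment, miR-127-3p, miR-433-3p and miR-434-3p, which lie antisense to Rtl1, were not tested. The signal of miR-127-3p was 6.64, 6.39 and 6.64 in controls and 6.51, 6.07 and 6.26 in DSS hearts (log2), and it was detected on 1 array of each group. Of these values, only those of DSS animals 14 and 16 lay below all 3 control values.

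Groups were compared with limma over the 282 miRNAs tested. In this fit, 5 of the 20 tested members (25%) were higher in DSS hearts at an adjusted p under 0.05, where 20.9% of all tested miRNAs were, and 0 were lower, where 28.4% were (49.3% in either direction). At an unadjusted p under 0.05 the counts were 6 higher and 0 lower, where 26.2% and 32.3% of all tested miRNAs passed. The share of members called higher was near that of all tested miRNAs, and 2 of the 5, miR-539-5p and miR-493-3p, had passed the detection filter only through the DSS arrays, where they are high. Run on these values, the methods' t-test gave 6 members higher and 0 lower before adjustment and 0 in either direction after it, when none of the 282 miRNAs passed. With array weights 7 members were called higher and 1, miR-376a-3p, lower, where 79 and 107 of the 282 tested miRNAs were.

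The calls depended on single arrays, for the members as for the whole array. Without control animal 9, 10 or 11 the members called higher numbered 3, 4 and 1, where 13.1%, 18.1% and 14.2% of all tested miRNAs were called higher. Without DSS animal 13, 14 or 16 they numbered 4, 2 and 0, where 22.0%, 12.8% and 0% were. Without DSS animal 16 no miRNA of the 282 was called, the smallest adjusted p was 0.0614, and 6 members were higher at an unadjusted p under 0.05.

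**Figure D1:**
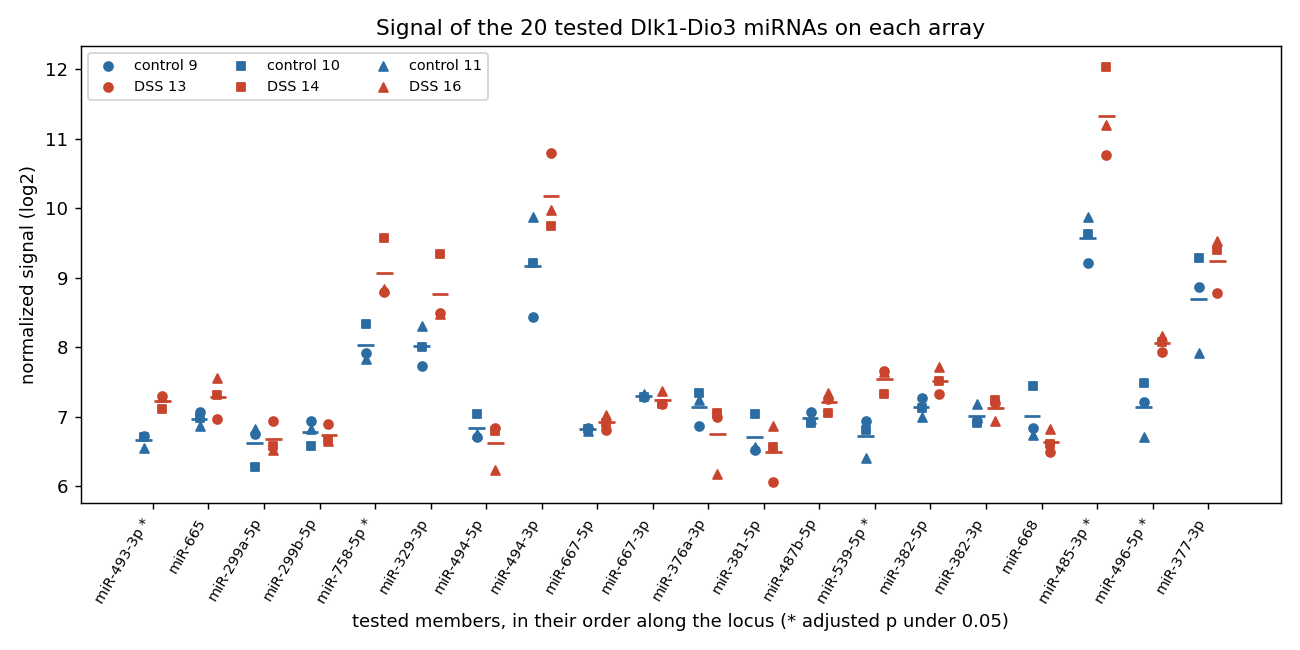
Normalized signal (log2, vertical axis) of the 20 tested members on each array, in their order along the locus; blue points are control animals 9, 10 and 11, red points DSS animals 13, 14 and 16, short lines the group means, and an asterisk marks an adjusted p under 0.05. The DSS points lie above all control points in 7 members and below all of them in 0.

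miR-485-3p had the largest change among the tested members. miR-485 is known from neurons, where it acts on synapses. Its signal was 9.21, 9.63 and 9.88 in controls and 10.76, 12.03 and 11.19 in DSS hearts (log2). Every DSS heart was above every control heart. The change was 1.76 ± 0.36 on the log2 scale (SE, n = 3 per group), a 3.38-fold higher signal, with an adjusted p of 0.0153 in limma. In the authors' processed values the same arrays read 638, 801 and 931 in controls and 1866, 2961 and 2434 in DSS hearts. miR-485-3p was called in 22 of 24 alternative settings, with changes of 1.28 to 2.60, and was not called by the methods' t-test after Benjamini-Hochberg adjustment, which those methods do not name, or by limma without DSS animal 16.

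For miR-758-5p the signal was 7.92, 8.33 and 7.83 in controls and 8.80, 9.57 and 8.84 in DSS hearts (log2). The groups did not overlap, and the heart of DSS animal 14 stood above the other DSS hearts. The change was 1.04 ± 0.27 (2.06-fold, limma, adjusted p = 0.0221). This call was lost without control animal 9 or 11 or without DSS animal 14 or 16. The other arm of the hairpin, miR-758-3p, is known as a regulator of the cholesterol transporter Abca1, and was detected on 1 array.

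miR-496-5p read 7.21, 7.49 and 6.71 in controls and 7.93, 8.08 and 8.16 in DSS hearts (log2). Its 3 DSS values were close together, and all lay above the controls. The change was 0.92 ± 0.24 (1.90-fold, limma, adjusted p = 0.0213). It was not called without control animal 11 or without DSS animal 14 or 16.

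The other 2 called members, miR-539-5p and miR-493-3p, were detected on all 3 DSS arrays and on no control array, so they entered the test only through the DSS group. miR-539 has been studied in heart muscle cells, and miR-493 in tumour spread. miR-539-5p read 6.94, 6.81 and 6.40 in controls and 7.66, 7.33 and 7.64 in DSS hearts (log2), with a fitted change of 0.82 ± 0.21 (limma, adjusted p = 0.0213). Its groups did not overlap. Since its controls were not detected, a second ratio of the group means is given, 1.65-fold. For it, each control value was raised to the lowest detected signal of its array where that was higher. The ratio leaves out the spread between animals and is not a lower limit of the change. The call of miR-539-5p was lost without control animal 11 or DSS animal 16.

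miR-493-3p read 6.72, 6.71 and 6.55 in controls and 7.30, 7.10 and 7.29 in DSS hearts (log2). The groups did not overlap, but all values lay near the detection limit. The fitted change was 0.57 ± 0.17 (limma, adjusted p = 0.0283), and the ratio computed as for miR-539-5p was 1.43-fold. The call was lost when any single array was left out. In a fit of all 761 miRNAs with no filter on detection, 3 members were called higher, miR-485-3p, miR-539-5p and miR-493-3p, each with an adjusted p of 0.0462, and 0 lower, where 4.20% and 5.52% of all miRNAs were called.

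Of the 15 tested members that were not called, 9 had a higher mean in DSS hearts and 6 a lower one. miR-494-3p, known from work on ischaemic injury of heart muscle, read 8.44, 9.21 and 9.87 in controls and 10.80, 9.75 and 9.98 in DSS hearts (log2). The groups overlapped, because DSS animal 14 was below control animal 11, and the change of 1.00 ± 0.43 did not pass the test (limma, adjusted p = 0.0910). miR-329-3p, a miRNA of neuronal dendrites, read 7.73, 8.01 and 8.31 against 8.49, 9.34 and 8.48, with no overlap but an adjusted p of 0.0714 (limma) for a change of 0.75 ± 0.30. miR-382-5p read 7.27, 7.13 and 7.00 against 7.33, 7.52 and 7.71, also without overlap, with a change of 0.38 ± 0.18 (limma, adjusted p = 0.117).

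Counting miR-329-3p and miR-382-5p, 7 of the 20 tested members had all DSS values above all control values, where 31.6% of all tested miRNAs did, and 0 had them below, where 34.8% did. miR-377-3p, known from work on vessel growth, overlapped widely, at 8.86, 9.28 and 7.92 in controls and 8.77, 9.40 and 9.53 in DSS hearts (log2). Its change of 0.55 ± 0.39 had an adjusted p of 0.268 (limma). The changes of miR-665 (0.31), miR-487b-5p (0.23), miR-382-3p (0.11), miR-667-5p (0.10) and miR-667-3p (-0.06) did not pass the test. The lowest changes were those of miR-376a-3p, at -0.40 (limma, adjusted p = 0.268), and miR-668, at -0.36 (limma, adjusted p = 0.236).

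The sequences of 4 tested members that were not called, those with the largest positive changes, are shown for comparison with those of the called members, 5′ to 3′ with the seed in capitals (RefSeq, GRCr8).
rno-miR-494-3p: uGAAACAUacacgggaaaccucu
rno-miR-329-3p: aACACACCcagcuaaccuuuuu
rno-miR-377-3p: uGAAUCACacaaaggcaacuuuu
rno-miR-382-5p: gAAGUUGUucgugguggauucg
The first of them, at chr6:134550163-134550185, holds the 9-base run CAUACACGG, with which miR-485-3p opens. In miR-485-3p this run covers the seed, and in miR-494-3p it begins within the seed, so their seeds differ.

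**Figure D2:**
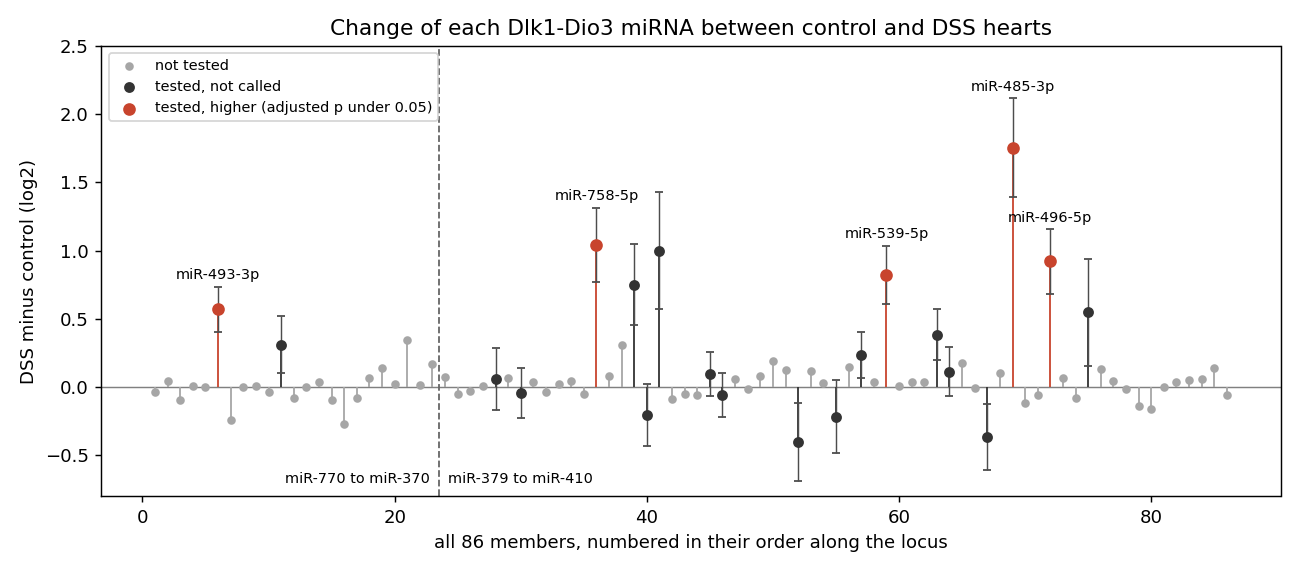
DSS minus control (log2, vertical axis) for all 86 members, numbered in their order along the locus; red marks the called members, black the other tested members, both with SE bars, and grey the members not tested. Left of the dashed line 2 of 23 members were tested and 1 called, and right of it 18 of 63 were tested and 4 called. Over all tested miRNAs, 20.9% were called higher. Members not tested lie between -0.27 and 0.34.

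Called members stood between members that were not called or not tested, as the plot of changes along the locus shows. Of the 66 members not tested, array values ranged from 5.84 to 7.22 and changes from -0.27 to 0.34 on the log2 scale, with a median of 0.02. These signals are close to background, and no change of those members was tested in the main comparison. One of them, miR-329-5p, read 6.40, 6.35 and 6.41 in controls and 6.83, 6.60 and 6.66 in DSS hearts, without overlap, and in the fit of all 761 miRNAs its adjusted p was 0.0555 (limma). miR-434-3p was detected on 2 DSS arrays and on no control array, and read 6.66, 6.68 and 6.79 in controls and 6.92, 6.57 and 6.84 in DSS hearts. These groups overlapped, the ratio computed as for miR-539-5p was 1.04-fold, and no test was run.

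The 2 arms of a hairpin were compared next, since both are cut from the same transcript. Both arms were on the array for 40 hairpins. Both were tested in 3 of these, only the 5p arm in 7, only the 3p arm in 5 and neither in 25. Among 5p members 10 of 40 were tested and 3 called, and among 3p members 8 of 40 were tested and 2 called, so calls came from either arm.

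For each of the 5 called members the other arm was not tested. The changes of those arms were 0.10 for miR-485-5p, 0.08 for miR-758-3p, 0.07 for miR-496-3p, 0.01 for miR-539-3p and 0.00 for miR-493-5p (log2). These arms were detected on no array, apart from miR-758-3p on 1, so their values bound no change. In the 3 hairpins with both arms tested, the changes were 1.00 and -0.21 for miR-494-3p and miR-494-5p, 0.38 and 0.11 for miR-382-5p and miR-382-3p, and 0.10 and -0.06 for miR-667-5p and miR-667-3p. None of these 6 arms passed the test, and the difference between arms was not tested.

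**Figure D3:**
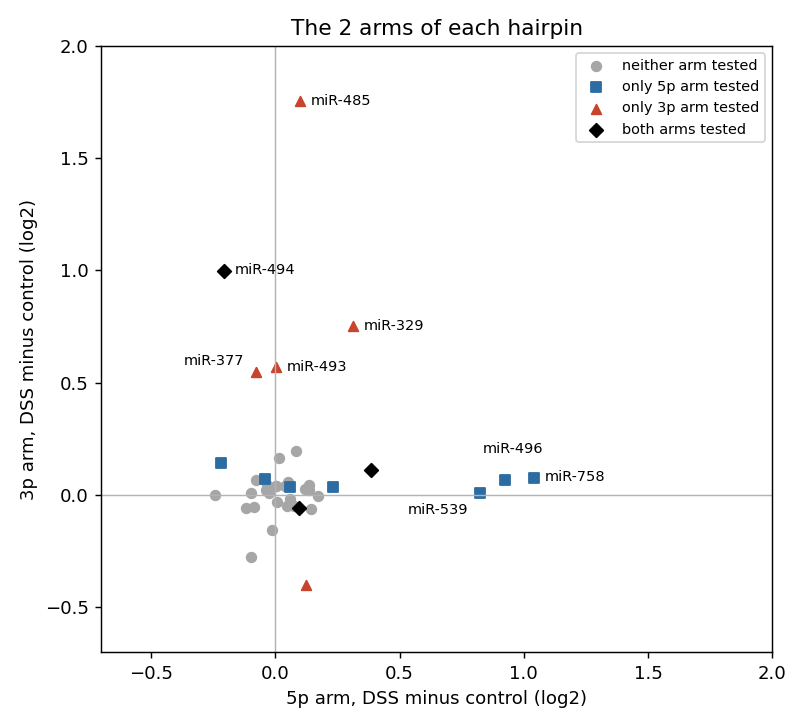
Change of the 3p arm (vertical axis) against that of the 5p arm (horizontal axis), DSS minus control on the log2 scale, for the 40 hairpins with both arms on the array; colours show which arms were tested. Points labelled by name, with a change over 0.5, lie along 1 axis or the other, with the second arm within 0.31 of 0. Apart from miR-494, the second arms of these hairpins were not tested, and their signals were close to background.

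Taken as 1 locus, the mean signal of the 20 tested members was 7.31, 7.46 and 7.33 in controls and 7.67, 7.81 and 7.72 in DSS hearts (log2). The groups did not overlap (7.37 ± 0.08 against 7.73 ± 0.07, SD, n = 3), and the difference was 0.37. The same mean over all 282 tested miRNAs was 8.75 in controls and 8.72 in DSS hearts. The median change was 0.27 over the 20 tested members and -0.06 over all tested miRNAs, and 14 of the 20 had a higher mean in DSS hearts, where 47.9% of all tested miRNAs did. These figures are a description, because some members were tested only on the strength of their DSS arrays.

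Over all 86 members, which no filter had shaped, the mean was 6.43 ± 0.02 in controls and 6.53 ± 0.03 in DSS hearts (log2), a difference of 0.10. Here 55 members had a higher mean in DSS hearts and 31 a lower one, where 51.5% of all 761 miRNAs had a higher one. The median change was 0.035, beside 0.00 over all 761. Over the 7 members detected on all 6 arrays, the mean was 8.09, 8.46 and 8.27 in controls and 8.96, 9.34 and 9.08 in DSS hearts, a difference of 0.85. Of these 7, 3 were called higher and 0 lower, where 26.0% and 27.7% of the 177 miRNAs detected on all arrays were, and their median change was 0.92, beside 0.03 over the 177.

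The size of the change depended on how arrays were scaled to each other. With spike-in probes as the scale of each array, 19 of the 20 members were called higher, with a median of 1.75, and with 5S rRNA probes 15, with a median of 1.22. All tested miRNAs moved with them: their median was 1.31 and 0.78, and 168 were called higher and 10 lower with spike-in scaling, 129 and 14 with 5S scaling, against 59 and 80 as reported. Without any normalization the medians were 0.80 for the members and 0.36 for all tested miRNAs, with 81 higher and 38 lower. The members' median exceeded that of all tested miRNAs by 0.34 as reported and by 0.44 under each of these 3 settings, which give the same difference by construction because they shift all miRNAs of an array alike. Before scaling, the spike-in probes were dimmer in DSS hearts by a mean of 0.95 (10.83 ± 0.13 against 9.88 ± 0.55, log2, SD, n = 3), and the part of this in the result was not tested.

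**Figure D4:**
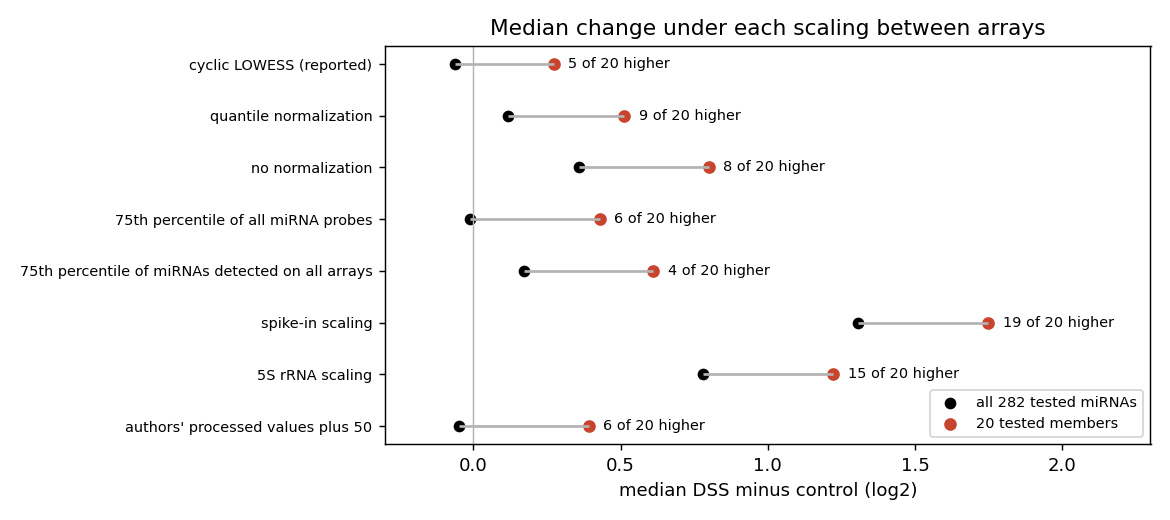
Median DSS minus control (log2, horizontal axis) of the 20 tested members (red) and of all 282 tested miRNAs (black) under 8 ways of scaling the arrays to each other, with the number of members called higher. The red point lies right of the black one in each, and both move right with spike-in and 5S rRNA scaling.

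Other miRNAs of the locus, with numbers outside the rule, were 14 on the array, 7 of them on the minus strand. Of these, 11 were detected nowhere and 2 were tested, with 0 called in either direction (limma, and 0 at an unadjusted p under 0.05). miR-1188-5p changed by 0.21 (limma, adjusted p = 0.606). miR-3576, read from the strand opposite to miR-539, read 6.93, 6.76 and 6.99 in controls and 7.24, 7.29 and 6.97 in DSS hearts, and its change of 0.28 did not pass either (limma, adjusted p = 0.225).

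Of miRNAs from other imprinted genes, 9 were on the array and 3 were tested. miR-483-5p, which lies within the gene of the growth factor Igf2, rose from 9.07, 8.78 and 9.52 in controls to 10.43, 12.02 and 11.21 in DSS hearts (log2). The change was 2.09 ± 0.42 (limma, adjusted p = 0.0151), without overlap. miR-298-3p changed by 0.42 and miR-335, of the Mest gene, by -0.65, with adjusted p of 0.0934 and 0.0849 (limma).

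Markers of the cells that a heart sample can hold also differed between the groups. Of 6 heart muscle miRNAs, 4 were detected on all arrays, 1 was higher (miR-1-3p) and 1 lower (miR-499-5p), with a summed level of 15.34 to 15.98 in controls and 15.25 to 16.53 in DSS hearts (log2), and miR-208b-3p was detected nowhere. Of 5 neuron miRNAs 0 were higher and 1 was lower, with a summed level of 9.81 to 10.01 in controls and 8.77 to 9.79 in DSS hearts, and miR-124-3p, which defines neurons, was detected nowhere. Of 5 leukocyte miRNAs 2 were higher, miR-150-5p (1.59) and miR-155-5p (0.65, detected on no control array), and 1 was lower, miR-223-3p (-1.35). Both miR-142-3p (-0.47) and miR-142-5p (-0.48) were detected on 1 control array and on no DSS array, and were not tested. The summed level of these 5 was 11.18 to 12.27 in controls and 13.07 to 13.30 in DSS hearts. Of the 5, only miR-150-5p was detected on all 6 arrays, and the sum also counts signals that were not detected. Of 3 red blood cell miRNAs 2 were lower, with a summed level of 11.11 to 12.52 against 8.69 to 10.06, and miR-144-3p was detected nowhere. Of 5 fibroblast and smooth muscle miRNAs 1 was higher and 3 were lower, at 14.02 to 14.50 against 13.54 to 13.64. The part of these cell types in the changes of the locus was not tested.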

How the data were processed

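Per array (6 in all), the scanner intensities deposited by the authors are the median brightness and pixel SD of 3968 spots on a linear scale; they also gave 1 table of processed intensities, background-subtracted and LOWESS-filtered by the authors. The scanner software and the rule for combining repeated spots are not given in the sources used here. From the scanner values, background was corrected with normexp (offset 50) in limma 3.58.1 (R 4.3.3), the 4 spots of a probe were averaged as log2 values, and arrays were normalized by cyclic LOWESS on 761 miRNA probes (span 0.7, 3 iterations). A spot passed above 3 SD of 632 empty spots over the background (read as the median over the dimmest 25% of the miRNA spots) with a pixel CV under 0.5. Those found on 3 or more of the 6 arrays entered lmFit and eBayes, with Benjamini-Hochberg adjustment over all 282, at 0.05. The pipeline was tested on simulated data, with planted changes larger than those of the called members and in fewer miRNAs than were called here. Recovery of changes of the size of the called members was not tested. The brightest spot of each array read 48608 to 59496, and whether its pixels were saturated was not tested. The number of arrays limits the precision. Sequences were matched by name with Python 3.11.15. Cell markers and the other lists were fixed by name.

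The members, lists and tests were chosen with earlier results of these data known. The text names the 12 tested members with the highest mean signal and the called members. It names the other arms of their hairpins, apart from miR-377-5p and miR-487b-3p, which were not tested. It also names members detected on at least 2 arrays of 1 group and on none of the other, and 2 lists of other imprinted miRNAs. Other members, the markers and the miRNAs of the closing section named outside that rule were named after their values were seen. Each replicate is 1 animal.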

Additional observations from a re-analysis of the deposited data

How the results depend on the processing

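Across 24 alternatives the median change of the tested members was above 0 in all 24, and 1 alternative called a member lower (array weights, 1). The counts called higher are given with the share of all tested miRNAs called higher in the same setting. As reported, 5 members were called higher (20.9%). This became 9 with quantile normalization (28.4%) and 8 with no normalization (28.7%). With spike-in scaling it became 19 (59.6%), and with 5S rRNA scaling 15 (45.7%). It was 3 with all miRNA probes tested (4.20%) and 3 with detection on all 6 arrays (27.1% in that fit). The methods' t-test gave 0 after Benjamini-Hochberg adjustment (0%) and 6 before it. Leaving out each array in turn gave 0 to 4 (0% to 22.0%). The median change, 0.27 as reported, and the difference of the locus mean, 0.37, became 0.44 and 0.46 with a normexp offset of 10, 0.51 and 0.54 with quantile normalization, 0.80 and 0.80 with none, 0.61 and 0.61 with the 75th percentile of miRNAs detected on all arrays, 1.75 and 1.75 with spike-in scaling, 1.22 and 1.22 with 5S scaling, 0.57 and 0.53 with the authors' processed values plus 10, 0.035 and 0.10 with all probes, 0.92 and 0.85 with detection on all 6 arrays, 0.56 and 0.57 with a limit of 5 SD, and 0.55 and 0.57 with a limit from the median empty spot. The median alone moved to 0.43 with the 75th percentile of all probes, 0.39 with the authors' values plus 50 and 0.41 with array weights. Leaving out each array gave medians of 0.19 to 0.34 and differences of 0.33 to 0.41. Members detected on at least 3 arrays fell from 20 to 13 with the limit from the median empty spot. miR-667-3p changed sign, to 1.54 (limma, adjusted p = 0.00246) with spike-in and 1.02 (limma, adjusted p = 0.0278) with 5S scaling, against -0.06. Fewer miRNAs or arrays enter some of these by construction, and otherwise the cause was not tested.

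Of the called members, miR-496-5p was called in 19 of 24 alternatives, miR-758-5p in 17 of 24, miR-539-5p in 20 of the 23 and miR-493-3p in 14 of the 22 in which it was tested, with highest adjusted p of 0.0798, 0.0677, 0.0803 and 0.0990 (limma or the methods' t-test). No paired analysis was possible because controls and DSS rats carry different animal numbers. A slide or scan block was not run because the files name neither. Most members lay near background and were not tested.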

Other observations

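A 5-base run, GUGUG, was noticed in 3 of the 5 called members after their values were seen, and it is given as a description. It stands near the 3′ end of these arms, outside the seed, and is shown here in capitals, 5′ to 3′ (RefSeq, GRCr8).
rno-miR-496-5p: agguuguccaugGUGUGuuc
rno-miR-539-5p: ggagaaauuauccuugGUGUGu
rno-miR-493-3p: ugaaggucuacuGUGUGccag
The run was searched on the strand of the mature miRNA alone. It was held by 3 of the 86 members (3.49%) and by 25 of the 761 miRNAs on the array (3.29%), and by 0 of the 15 tested members that were not called.

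Over the whole array, 18 of the 282 tested miRNAs held GUGUG, and of these 14 were called higher in DSS hearts (77.8%) and 1, miR-361-3p, lower, where 20.9% of all tested miRNAs were higher and 28.4% lower. The run was picked from called members, so these shares support nothing about it. The median change was 0.96 with the run and -0.16 without it. Outside the members, miR-297 and the miR-466 family, 11 tested miRNAs held it, of which 7 were called higher (63.6%) and 1 lower. Among the 7 were let-7b-5p, miR-1-3p, which is abundant in heart muscle, and miR-206-3p, which is known from skeletal muscle. miR-539-5p and miR-496-5p also shared the longer run UGGUGUGU.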
